A study of Mus musculus with 15 samples.

Results

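The 32 genes described here make or move sterols and fatty acids. They are genes switched on by SREBPs or placed beside them in the same pathways, taken by gene symbol and not by their values, and all 32 were found among the 23420 mouse genes of the deposited tables. By role they were 16 genes of sterol synthesis, 3 regulators (Srebf1, Srebf2 and Insig1), 3 genes of sterol transport (Stard4, Abca1 and Abcg1) and 10 genes of fatty acid synthesis, elongation and desaturation. RNA-seq read counts were deposited for 15 libraries from newborn mice at postnatal day 1. The groups were 4 libraries of epidermis and 4 of tongue from animals with all of Tmprss11a to Tmprss11g knocked out (labelled -/-, KO here), and 3 of epidermis and 4 of tongue from wildtype animals (WT). The targeted genes encode membrane-anchored serine proteases of surface epithelia. The labels give 1 strain entry, naming the targeted cluster, for every sample, and say neither how the alleles were made nor how many lines were used. The descriptions carry a second name with an A-number, taken here to name the animal. By it the libraries came from 9 animals, and both tissues are at hand for 6 of them, all 4 knockouts included. Since the numbers cluster, they are grouped below as A32x, A34x and A38x, which may or may not stand for litters or days, as no label says so.

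Sterols are built from acetyl-CoA through mevalonate, isoprenoid diphosphates, squalene and lanosterol, and the same acetyl-CoA feeds fatty acid synthesis. When membrane sterol is low, the SREBP transcription factors encoded by Srebf1 and Srebf2 are escorted to the Golgi by SCAP, cut, and sent to the nucleus, where they switch on most of these genes, and INSIG proteins hold them back when sterol is plentiful. Abca1 and Abcg1 encode pumps that export sterol and are classic targets of the sterol-sensing LXR receptors, so they usually answer to sterol load in the opposite sense. In epidermis, keratinocytes make cholesterol, fatty acids and ceramides in place for the water barrier of the stratum corneum. Tongue is a muscular organ covered by a stratified epithelium, and the isomerase IDI2 is known, in human, as a skeletal muscle enzyme.

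The genes of each isoform pair of the list lie near each other on the same chromosome. Idi1 (chr13:8885501-8892451, GRCm38, plus strand) and Idi2 (chr13:8952863-8960945, plus strand) encode the isopentenyl-diphosphate isomerases, which convert isopentenyl to dimethylallyl diphosphate. Scd1 (chr19:44394455-44407879, minus strand) and Scd2 (chr19:44293674-44306864, plus strand) encode stearoyl-CoA desaturases, which put the first double bond into saturated fatty acids. A stretch of 120 coding bases of each isomerase gene is shown because the reads were 37 bases long, and a read or its mate must cross a difference to be assigned to 1 gene of a pair. Capitals mark the 28 bases at which these stretches differ, and positions count from 1 at the A of the start codon (Idi1 259 to 378, Idi2 91 to 210).
Idi1: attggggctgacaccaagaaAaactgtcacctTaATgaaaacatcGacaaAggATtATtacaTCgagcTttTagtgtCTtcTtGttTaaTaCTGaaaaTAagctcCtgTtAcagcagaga
Idi2: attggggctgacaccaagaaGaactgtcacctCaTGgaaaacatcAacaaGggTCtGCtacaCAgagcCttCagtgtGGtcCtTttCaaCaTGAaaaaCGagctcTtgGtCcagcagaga
Over the whole aligned coding sequence Idi1 and Idi2 were identical at 64.0% of 681 positions, and the longest identical run was 20 bases, shorter than a read. Scd1 and Scd2 were identical at 90.3% of 1065 aligned positions, with a longest identical run of 147 bases. The stretch below, bases 523 to 642 of Scd1 and 532 to 651 of Scd2, is the same in both genes, and a read pair that falls wholly inside it could not be given to either gene from its sequence.
Scd1 and Scd2: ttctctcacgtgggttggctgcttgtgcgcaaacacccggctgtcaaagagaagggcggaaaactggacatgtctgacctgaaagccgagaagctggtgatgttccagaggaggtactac

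Promoters are shown for 3 genes to set Idi2, which was higher in tongue, beside Hmgcs1 and Mvk, early steps of the pathway whose differences ran the other way (in WT that of Hmgcs1 did not pass). Of the 32 genes, 24 had an entry in the RefSeq promoter table (GRCm38.p6), and the 250 bases before the start were searched on both strands. The first motif was TCACNCCAC, a form of the sterol regulatory element bound by SREBPs, and the other was CCAAT, the box bound by NF-Y. The sterol element was found in 1 of the 24 genes (4.17%), Hmgcs1, against 1.22% of 27025 genes. CCAAT was found in 17 of the 24 (70.8%), against 37.5% of the 27025 genes. Capitals in the sequences mark these motifs, and ATTGG is CCAAT on the other strand. Hmgcs1 (chr13:119690101-119690350, plus strand), which makes HMG-CoA, held 3 CCAAT boxes and the sterol element TCACCCCAC beginning at position -137 from the start. Mvk (chr5:114444019-114444268, plus strand), mevalonate kinase, held 5 CCAAT boxes. Idi2 (chr13:8952613-8952862, plus strand) held neither motif. The motifs did not sort the genes by tissue. Acat2, Acly and Elovl6 held neither motif and were higher in epidermis, like other genes that held CCAAT boxes. Acaca was higher in epidermis as well, and its only entry held neither motif. That entry (from chr11:84195188) lies inside the gene, which starts at 84129672, so the bases before that start were not searched. Of the genes higher in tongue, Insig1, Acss2 and Elovl5 held CCAAT boxes, while Abca1 and Fads2, like Idi2, held neither motif.
Hmgcs1: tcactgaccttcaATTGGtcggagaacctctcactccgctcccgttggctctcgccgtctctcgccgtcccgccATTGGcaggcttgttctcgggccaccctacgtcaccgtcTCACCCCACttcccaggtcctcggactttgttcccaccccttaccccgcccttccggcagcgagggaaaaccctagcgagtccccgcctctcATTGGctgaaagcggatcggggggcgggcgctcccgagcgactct
Mvk: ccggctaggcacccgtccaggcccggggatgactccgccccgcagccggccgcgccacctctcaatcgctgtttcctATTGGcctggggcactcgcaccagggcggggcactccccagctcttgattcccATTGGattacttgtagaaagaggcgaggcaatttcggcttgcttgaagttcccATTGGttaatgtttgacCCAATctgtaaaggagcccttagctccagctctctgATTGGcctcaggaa
Idi2: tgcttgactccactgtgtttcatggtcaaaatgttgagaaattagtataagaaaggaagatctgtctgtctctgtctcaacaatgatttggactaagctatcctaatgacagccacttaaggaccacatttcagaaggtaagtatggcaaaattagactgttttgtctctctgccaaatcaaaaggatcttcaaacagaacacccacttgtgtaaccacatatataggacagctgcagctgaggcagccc

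The libraries held 10117938 to 17819847 counted reads, and CPM values below use a library size scaled by TMM over all 15 libraries. Krt1, a keratin of the suprabasal epidermis, stood at 11075 to 26427 CPM in epidermis and 22.0 to 42.7 CPM in tongue. Krt13, a keratin of the tongue surface, stood at 10.3 to 45.5 CPM in epidermis and 2650 to 4438 CPM in tongue, so every library carried the keratin of its labelled tissue. Of the 7 targeted genes 6 were analysed here, and their summed CPM was 136 to 151 in KO tongue and 350.2 to 388 in WT tongue, and 109 to 251 in KO epidermis and 237 to 310.1 in WT epidermis. RNA of the targeted genes was thus still counted in knockouts. All KO libraries were below all WT libraries for 5 of the 6 in tongue and for 3 of the 6 in epidermis (Tmprss11b, Tmprss11d and Tmprss11e), where the sum, most of it Tmprss11f, overlapped. Epidermis WT 1 stood apart: mitochondrial ribosomal RNA took 44.6% of its reads against 20.1% to 23.8% in the other epidermis libraries, and its mean correlation of log2 levels with the other epidermis libraries was 0.874 against 0.948 to 0.960. In tongue the lowest such correlation was that of KO 3, 0.966 against 0.976 to 0.983. Some results that rest on these libraries are given with and without them, and others only with them.

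Per kilobase of exon, the highest of the 32 genes in epidermis were Hmgcs1, Acly and Scd2, and in tongue Idi2, Hmgcs1 and Scd2. Hmgcs1, the entry enzyme of the mevalonate pathway, averaged 54.5 ± 5.08 CPM per kb in KO epidermis (SD, n = 4), 52.7 ± 21.1 in WT epidermis (n = 3), 34.1 ± 6.21 in KO tongue (n = 4) and 34.8 ± 2.86 in WT tongue (n = 4). Acly, which splits citrate into acetyl-CoA, followed in epidermis at 45.5 ± 10.1 CPM per kb in KO and 43.9 ± 17.6 in WT. Scd2 stood at 45.0 ± 8.34 CPM per kb in KO epidermis and 36.8 ± 8.34 in WT epidermis, so Hmgcs1, Acly and Scd2 did not differ beyond their spread there. Stard4, which carries cholesterol between membranes, was next at 27.1 ± 6.78 CPM per kb in KO epidermis and 28.3 ± 1.77 in WT epidermis. The 3 lowest in epidermis were the same in both genotypes and did not differ beyond their spread in KO. They were Fads2, the delta-6 desaturase, at 0.368 ± 0.245 CPM per kb in KO and 0.709 ± 0.720 in WT, Idi2, at 0.374 ± 0.517 in KO and 0.126 ± 0.0308 in WT, and Acss2, at 0.507 ± 0.0778 in KO and 0.632 ± 0.268 in WT. In tongue Idi2 was the highest at 228 ± 71.4 CPM per kb in KO and 245 ± 37.3 in WT, and Idi1 and Fdps were the lowest, with means from 1.15 to 1.36 CPM per kb over both genotypes.

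**Figure D1:**
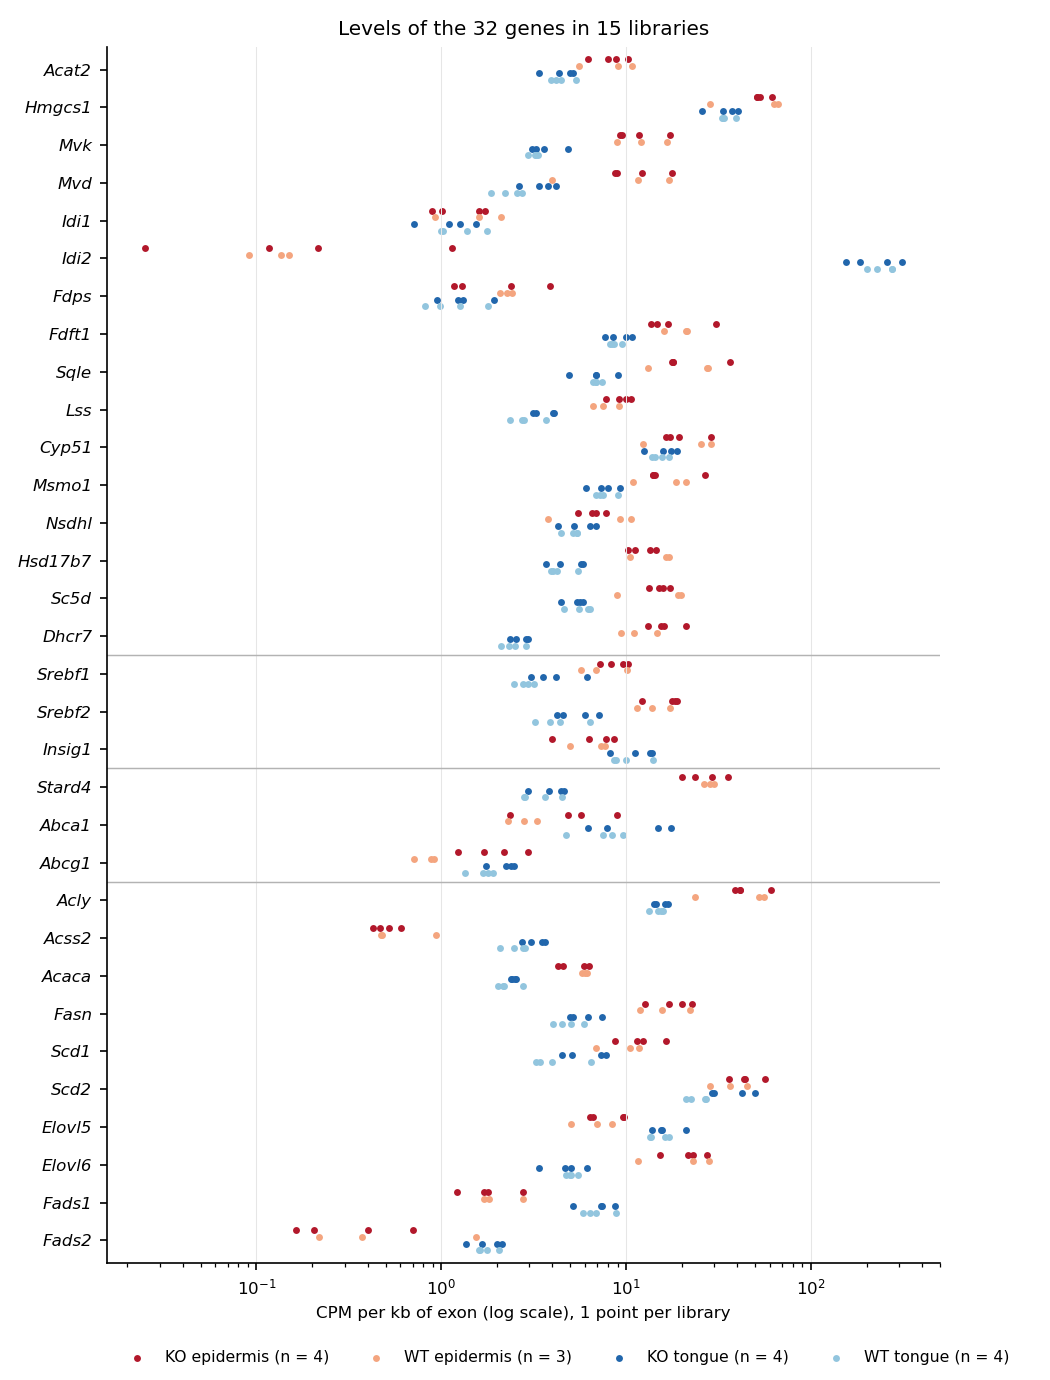
Level of each of the 32 genes in each of the 15 libraries, in CPM per kb of exon on a log axis, with KO epidermis, WT epidermis, KO tongue and WT tongue from top to bottom within a gene. Most genes of sterol synthesis lie further right in epidermis, while Idi2 averages 228 and 245 CPM per kb in KO and WT tongue and 0.374 and 0.126 in KO and WT epidermis.

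Epidermis was first set against tongue in each genotype. These comparisons share no library, although the same animals gave both tissues in 6 cases. Most of the 32 genes were higher in epidermis in both genotypes, among them the late sterol enzyme Dhcr7, the cholesterol carrier Stard4, the elongase Elovl6 and the regulators Srebf1 and Srebf2. Genes of sterol export, acetate activation and polyunsaturated fatty acid synthesis (Abca1, Acss2, Fads1 and Elovl5) were higher in tongue, with Idi2 far ahead of the rest. By edgeR's quasi-likelihood test with Benjamini-Hochberg adjustment over all genes tested, 19 of the 32 genes were higher and 7 lower in epidermis of knockouts, and 20 were higher and 7 lower in epidermis of wild types, at an adjusted p under 0.05. Among all genes tested 32.7% were higher and 31.1% lower in KO, and 32% and 31.6% in WT. The median log2 difference of the 32 genes was 1.03 in KO and 1.18 in WT, against 0.07 and 0.03 over all genes tested. Of the genes higher in epidermis 18 were called in both genotypes, 94.7% of the 19 of KO and 90.0% of the 20 of WT. Of the genes lower in epidermis 6 were shared, 85.7% of the 7 of each genotype. In KO the tissues did not overlap for 19 genes higher and 5 lower in epidermis (28.6% and 29.9% of all genes), and in WT for 20 higher and 8 lower (31.8% and 33.9%). In bulk RNA of this kind a smaller share of a cell type and less RNA per cell cannot be told apart. The 12 skeletal muscle markers summed to 109 to 793 CPM in KO epidermis, 112 to 282 in WT epidermis, 34917 to 56313 in KO tongue and 31720 to 56095 in WT tongue, and all 12 were lower in epidermis in both genotypes. All 7 suprabasal keratinocyte markers were higher in epidermis in both. The part of these cell types in the differences below was not tested.

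In the mevalonate and sterol pathway, the steps differed in how far epidermis exceeded tongue. Dhcr7, the last enzyme of the Kandutsch-Russell branch, had 76.1, 122, 93.7 and 90.3 CPM in KO epidermis, against 16.7, 17.2, 14.7 and 13.7 CPM in KO tongue. In WT it had 54.5, 85.2 and 64.2 CPM in epidermis and 16.8, 12.3, 13.5 and 14.6 CPM in tongue. Every epidermis library was above every tongue library, and the log2 difference was 2.64 in KO (SE 0.17) and 2.27 in WT (SE 0.18), a 6.23-fold and a 4.83-fold excess. Mvd, which makes isopentenyl diphosphate, had 22.8, 32.8, 16.5 and 16.3 CPM in KO epidermis against 4.92, 6.27, 7.07 and 7.74 in KO tongue, and 7.43, 31.8 and 21.6 CPM in WT epidermis against 5.08, 4.12, 3.44 and 4.77 in WT tongue. Its log2 difference was 1.78 in KO (SE 0.24) and 2.25 in WT (SE 0.40), where the lowest epidermis value was that of WT 1. Mvk, which acts earlier in the pathway, had log2 differences of 1.71 in KO and 1.99 in WT. Sqle, the squalene epoxidase and a rate-limiting step, was higher by 1.72 in KO and 1.73 in WT on the log2 scale. Lss, Hsd17b7, Sc5d, Fdft1, Msmo1 and Acat2 were also higher in epidermis in both genotypes, the last with a log2 difference of 0.95 in WT. Of the 37-base windows of Acat2 42.0% also occur in other genes, so its level is uncertain.

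The exceptions along the pathway were Hmgcs1, Idi1, Fdps, Cyp51 and Nsdhl. Hmgcs1 passed in KO (log2 difference 0.70, adjusted p = 0.0028, edgeR) but not in WT (0.61, adjusted p = 0.066), and Fdps, which makes farnesyl diphosphate, passed in WT (0.92) but not in KO (0.68, adjusted p = 0.12). Cyp51, the lanosterol demethylase, had 0.36 in KO and 0.56 in WT, and Nsdhl, a C4-demethylation enzyme, 0.26 and 0.66, and neither passed. The WT values depended on library WT 1: without it Hmgcs1 (0.91), Cyp51 (0.85) and Nsdhl (0.98) passed. With the animal as a block, which in WT lets only the 2 A38x animals with both tissues compare within an animal, 24 of the 32 genes were higher and 7 lower. Animals with a single library are fitted fully by this block. The spread then rests on those 2 animals and is barely estimated, so the calls of this setting are uncertain. Among all 16577 genes tested 5526 were higher and 5765 lower with this block. Of the 32 genes, Hmgcs1, Idi1, Cyp51 and Nsdhl were among the higher and Fads2 among the lower, and Insig1 was no longer called (adjusted p = 0.165, edgeR).

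Of the sterol carriers and pumps, Stard4 had the largest excess in epidermis of the 32 genes in both genotypes. It had 132, 198, 112 and 163 CPM in KO epidermis against 25.7, 21.5, 25.0 and 16.5 in KO tongue, and 147, 167 and 159 CPM in WT epidermis against 25.2, 20.4, 15.6 and 15.9 in WT tongue. The groups did not overlap, and the log2 difference was 2.79 in KO (SE 0.21) and 3.06 in WT (SE 0.19), or 6.92-fold and 8.32-fold. Abca1 ran the other way, with 50.2, 24.6, 93.1 and 58.8 CPM in KO epidermis against 64.8, 81.6, 181 and 154 in KO tongue, and 34.1, 28.9 and 23.9 CPM in WT epidermis against 48.8, 86.5, 100.2 and 78.0 in WT tongue. Its log2 difference was -1.04 in KO (SE 0.42, adjusted p = 0.0494, edgeR), where the groups overlapped and the call was lost when any one of 6 libraries was left out, and -1.42 in WT (SE 0.25). Abcg1 had a log2 difference of -0.10 in KO (SE 0.25, adjusted p = 0.75), where the tissues were not told apart, and was lower in epidermis in WT (-0.99, SE 0.20).

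The 3 regulators did not go the same way. Srebf1 had 54.1, 40.9, 46.8 and 58.0 CPM in KO epidermis against 20.1, 17.3, 34.5 and 23.5 in KO tongue, and 38.6, 57.3 and 32.3 CPM in WT epidermis against 17.8, 15.6, 13.9 and 16.6 in WT tongue. The groups did not overlap, with log2 differences of 1.10 in KO (SE 0.22) and 1.44 in WT (SE 0.20). Srebf2 had 131, 128, 87.7 and 136 CPM in KO epidermis against 43.1, 32.8, 51.4 and 30.5 in KO tongue, and 99.2, 124 and 82.8 CPM in WT epidermis against 45.9, 31.5, 23.2 and 28.0 in WT tongue. It too did not overlap between tissues, with log2 differences of 1.64 in KO (SE 0.21) and 1.69 in WT (SE 0.24). Insig1, itself a target of SREBPs, had 24.0, 26.7, 19.5 and 12.3 CPM in KO epidermis against 42.9, 41.9, 25.4 and 34.7 in KO tongue, and 15.3, 23.9 and 22.7 CPM in WT epidermis against 43.2, 27.4, 31.0 and 26.7 in WT tongue. Insig1 was lower in epidermis in KO (log2 difference -0.79, SE 0.24, adjusted p = 0.013, edgeR) and WT (-0.61, SE 0.22, adjusted p = 0.035), although in KO its groups overlapped, and the WT call was lost without any one of 3 libraries, with the animal block and within the A38x animals (-0.32).

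**Figure D2:**
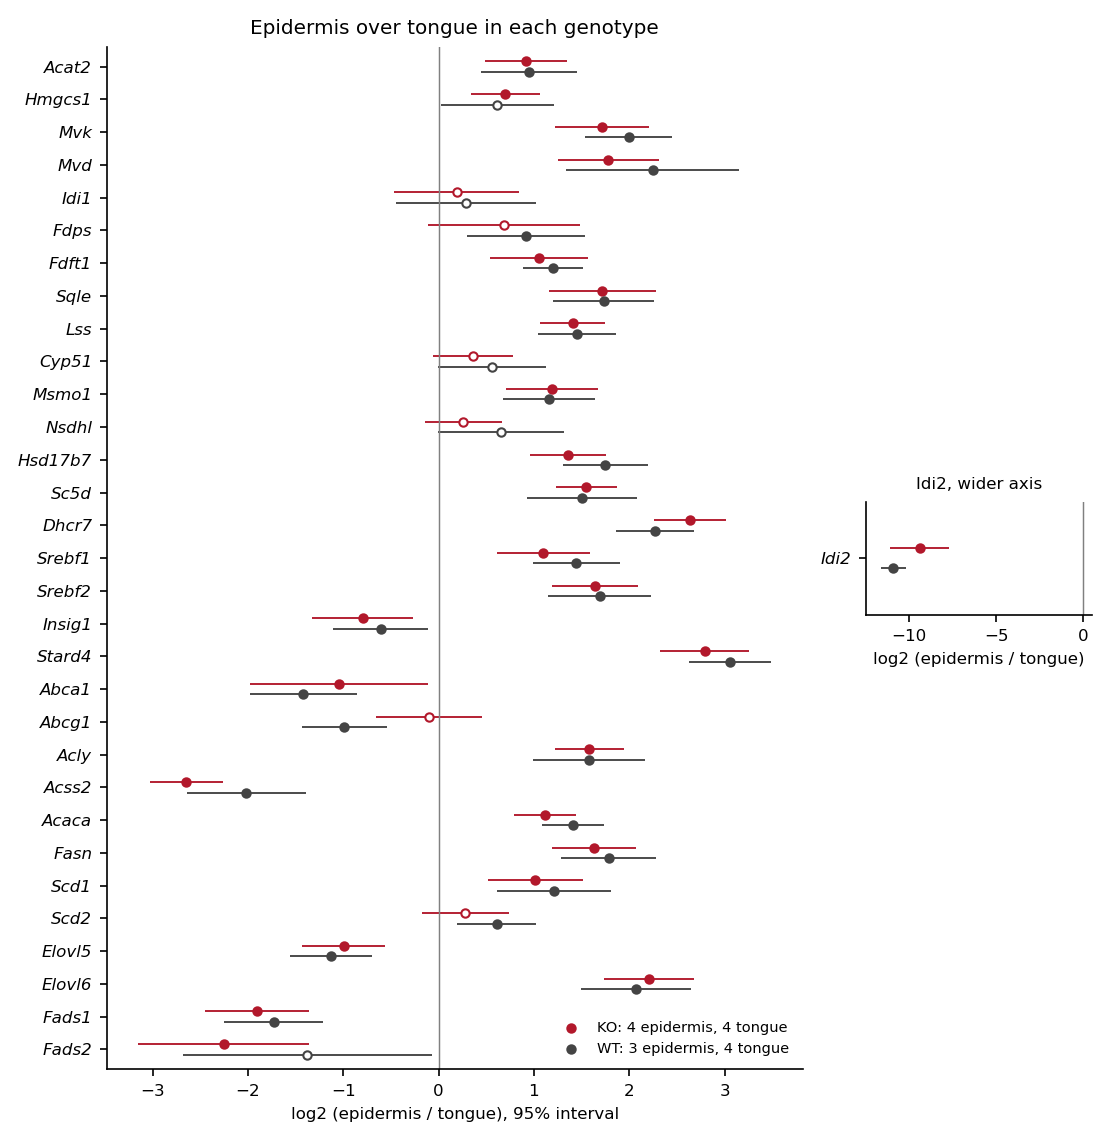
Log2 ratio of epidermis to tongue for the 32 genes in KO (red, above) and WT (grey, below), with 95% intervals, filled where the adjusted p was under 0.05 and open where it was not, and Idi2 on its own wider axis. Stard4 is furthest right at 2.79 in KO and 3.06 in WT, and Idi2 lies at -9.41 in KO and -10.91 in WT.

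In fatty acid synthesis the cytosolic route from citrate was higher in epidermis and the steps towards polyunsaturated fatty acids were higher in tongue. Acly had log2 differences of 1.58 in KO and 1.58 in WT, Fasn, the fatty acid synthase, 1.63 and 1.79, and Acaca, which makes malonyl-CoA, 1.41 in WT. The level of Acaca is uncertain, as 32.4% of its 37-base windows also occur in other genes. Elovl6, which lengthens palmitate, had 98.0, 177, 148 and 139 CPM in KO epidermis against 30.2, 39.6, 21.7 and 32.3 in KO tongue, and 74.7, 149 and 181 CPM in WT epidermis against 35.2, 32.5, 30.6 and 31.9 in WT tongue. Its log2 difference was 2.21 in KO (SE 0.22) and 2.07 in WT (SE 0.26), with no overlap. Acss2, which activates acetate and so offers another way to acetyl-CoA, had 6.19, 5.31, 4.36 and 4.76 CPM in KO epidermis against 27.8, 37.2, 31.1 and 35.5 in KO tongue, and 9.56, 4.87 and 4.82 CPM in WT epidermis against 25.1, 21.0, 28.2 and 28.7 in WT tongue. It was lower in epidermis by 2.64 in KO and 2.01 in WT on the log2 scale, in every library, and Acly and Acss2, which both supply acetyl-CoA, thus went opposite ways. Fads1, the delta-5 desaturase, had 13.3, 8.63, 8.24 and 5.83 CPM in KO epidermis against 35.0, 35.5, 24.9 and 41.7 in KO tongue, and 13.3, 8.77 and 8.16 CPM in WT epidermis against 42.4, 28.1, 33.0 and 30.8 in WT tongue, with log2 differences of -1.90 (SE 0.25) and -1.73 (SE 0.23). Fads2 was lower in KO epidermis (-2.25, SE 0.41), and in WT it had -1.38 (SE 0.58, adjusted p = 0.063), where library WT 1 had 5.06 CPM and the other epidermis libraries 1.23 and 0.718, against 5.36, 5.82, 5.30 and 6.79 CPM in WT tongue. Without WT 1 its WT difference passed at -2.56. Elovl5, which lengthens polyunsaturated chains, had -1.0 in KO and -1.13 in WT.

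Genes of the same pathways outside the 32 were counted in 4 related lists, to be read against the 32.7% of all genes higher and 31.1% lower in KO and the 32% and 31.6% in WT. Of 14 other genes of sterol synthesis and uptake tested, 6 were higher and 2 lower in KO epidermis and 6 higher and 4 lower in WT epidermis, with Acat1, a mitochondrial thiolase, at log2 differences of -1.59 in KO and -1.90 in WT. Of 10 other SREBP regulators 4 were higher and 3 lower in KO, and 4 higher and 2 lower in WT, with Scap at 0.93 and 1.02 and Insig2 at 1.33 and 1.35, so the INSIG genes differed in direction. Of 12 genes of LXR signalling and sterol handling 3 were higher and 5 lower in KO and 2 higher and 6 lower in WT, with the cholesteryl ester hydrolases Nceh1 at -3.25 in KO and -3.45 in WT and Lipa at -1.88 and -2.23. Of the other fatty acid genes 15 of 29 were higher and 7 lower in KO, and 16 of 30 higher and 7 lower in WT. Elovl7, a very-long-chain elongase, stood at 4.24 in KO and 4.11 in WT, and Hacd1, a dehydratase known for its role in muscle, at -4.64 and -4.94.

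The isomerase pair gave the widest tissue difference of the 32 genes. Idi2 had 0.262, 2.57, 0.485 and 0.0560 CPM in KO epidermis against 704, 582, 348 and 417 in KO tongue, and 0.338, 0.205 and 0.308 CPM in WT epidermis against 621, 451, 512 and 620.4 in WT tongue. The epidermis values rest on 46 reads in the 4 KO libraries (1 to 31 a library) and 13 reads in the 3 WT libraries (3 to 6), against 27251 and 26592 reads in the KO and WT tongue libraries. The fitted log2 difference was -9.41 in KO (SE 0.75) and -10.91 in WT (SE 0.32), and its size depends on those few epidermis reads. Idi1, the form found in most tissues, had 5.61, 6.06, 3.12 and 3.53 CPM in KO epidermis against 4.46, 5.37, 2.49 and 3.87 in KO tongue, and 3.26, 5.59 and 7.34 CPM in WT epidermis against 6.23, 4.85, 3.59 and 3.47 in WT tongue. Its groups overlapped, with log2 differences of 0.19 in KO (adjusted p = 0.60, edgeR) and 0.29 in WT (adjusted p = 0.458). Per kilobase, Idi1 made up 82.9 ± 16.8% of the pair in KO epidermis (SD, n = 4) and 91.5 ± 4.69% in WT epidermis (n = 3), and 0.511 ± 0.0946% in KO tongue and 0.533 ± 0.156% in WT tongue (n = 4 each). The log2 ratio of Idi1 to Idi2 differed between tissues by 10.35 in KO and 10.99 in WT. Over 8 exact two-sided permutation tests of isoform ratios each of these had p = 0.0286, the smallest the design allows, and 0.114 after adjustment. A share of 26.5% of the 37-base windows of Idi1 and 30.2% of those of Idi2 also occurs in other genes of the annotation, and an antisense gene model overlaps Idi1, so both levels carry that uncertainty.

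Within epidermis Idi2 was highest in KO 2, the library with the most muscle RNA of that tissue. Its 12 muscle genes summed to 793 CPM, with 463 CPM of Ttn, 89.4 of Myh8 and 65.8 of Acta1, against 109 to 228 in the other KO and 112 to 282 in the WT epidermis libraries. KO 2 was also highest for the 8 tongue epithelium genes, at 1945 CPM against 539 to 1068 in the other KO libraries. In the WT epidermis libraries these genes summed to 840 to 1513 CPM, and Rptn and Sprr3 were higher in WT 3 than in KO 2. Across tongue, where the muscle sum varied from 31720 to 56313 CPM, libraries with nearly the same sum differed in Idi2: WT 4 had 56095 CPM of muscle genes and 620.4 of Idi2, and KO 3, the library that stood apart, 56313 and 348. KO 1 and WT 1, the tongue libraries with the lowest muscle sums (34917 and 31720 CPM), had the highest Idi2, 704 and 621 CPM. The source of the Idi2 reads in epidermis was not tested.

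**Figure D3:**
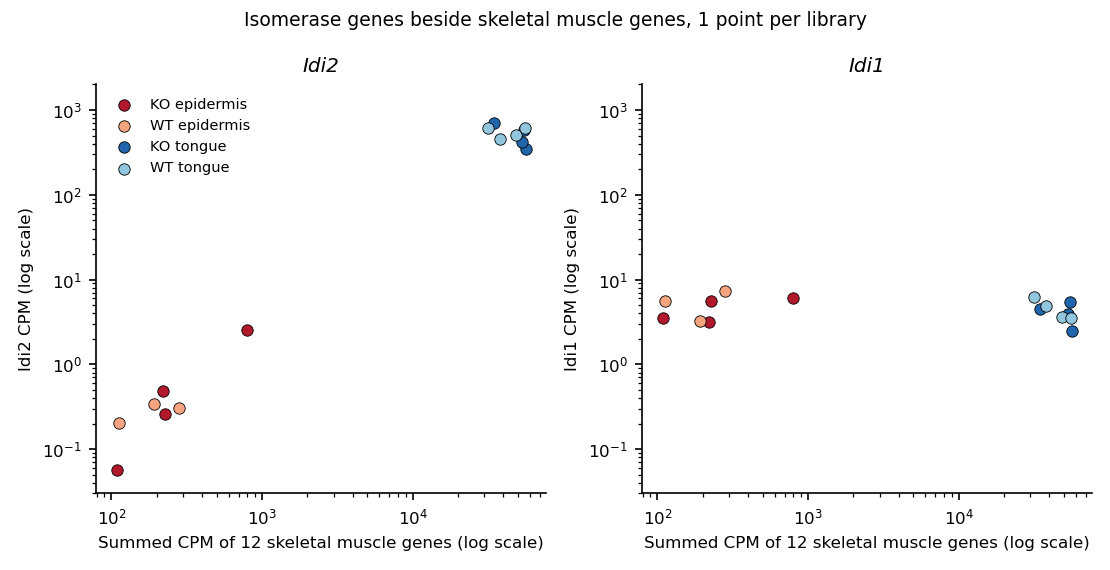
CPM of Idi2 (left) and Idi1 (right) against the summed CPM of 12 skeletal muscle genes, both on log axes, 1 point per library. Idi2 is at 348 to 704 CPM in all tongue libraries and at most 2.57 CPM in epidermis, where KO 2 is highest in both measures, while Idi1 stays between 2.49 and 7.34 CPM in both tissues.

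Knockout epidermis was then set against wild-type epidermis, to ask whether loss of the proteases moves these genes. With all libraries no gene was called: 0 of 16073 genes passed in edgeR (0.0%), against 187 at an unadjusted p under 0.05 (1.16%), and DESeq2 called 1 and limma-voom 0, with 259 and 162 at an unadjusted p under 0.05. Of the 32 genes 31 were tested, since Idi2 did not pass the filter on low counts in epidermis, and 0 passed, with 2 at an unadjusted p under 0.05. Their log2 changes were above 0 for 15 and below 0 for 16 (50.2% of all genes were above 0), with a median of -0.04 against 0.00 over all genes. Single libraries moved this split. It was 12 above and 19 below without WT 1 (median -0.19), 9 and 22 without KO 2 (-0.15), and 22 and 9 without WT 3 (0.10). The intervals were wide, with a median half-width of 0.64 on the log2 scale for the 15 sterol synthesis genes. These are intervals of single genes before adjustment, and a change past that width could still miss the adjusted threshold.

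The 2 genes at an unadjusted p under 0.05 were the sterol exporters. Abcg1 had 8.97, 12.4, 16.1 and 21.5 CPM in KO epidermis, against 6.64, 6.46 and 5.18 CPM in WT epidermis. It was the only one of the 31 genes whose groups did not overlap, a pattern that 1.26% of all genes showed in that direction. Its log2 change was 1.26 (SE 0.32, 95% interval 0.54 to 1.97, a 2.39-fold difference), with an unadjusted edgeR p of 0.0030 and an adjusted p of 0.9998. Abca1 had 50.2, 24.6, 93.1 and 58.8 CPM in KO epidermis, against 34.1, 28.9 and 23.9 CPM in WT epidermis. The KO libraries other than KO 2 were above all WT libraries. The log2 change was 0.96 (SE 0.39, interval 0.08 to 1.84), with an unadjusted edgeR p of 0.036 and an adjusted p of 0.9998. Dhcr7 had 76.1, 122, 93.7 and 90.3 CPM in KO and 54.5, 85.2 and 64.2 CPM in WT, with a log2 change of 0.46 (SE 0.22) and an adjusted edgeR p of 0.9998.

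The regulators and the fatty acid genes did not pass either. The log2 change was 0.20 for Srebf1 (SE 0.23), 0.22 for Srebf2 (SE 0.22) and -0.04 for Insig1 (SE 0.28), at levels already given for both genotypes. Of the 10 fatty acid genes those with the smallest p were Fads2, Scd1 and Scd2. Fads2 had 2.31, 1.33, 0.539 and 0.673 CPM in KO and 5.06, 1.23 and 0.718 CPM in WT, and its log2 change of -0.92 (SE 0.72) rests on WT 1, without which it was 0.28. Scd1 had 80.1, 56.0, 60.4 and 42.8 CPM in KO and 33.8, 57.8 and 51.3 CPM in WT (0.30, SE 0.26). Scd2 had 240.4, 239, 197 and 307 CPM in KO and 156, 247 and 199.6 CPM in WT (0.27, SE 0.23). For each the groups overlapped. Of the related lists 0 of 14 other sterol genes, 0 of 10 other SREBP regulators, 0 of 11 genes of LXR signalling and sterol handling and 0 of 30 other fatty acid genes passed, with median log2 changes of 0.14, 0.10, 0.23 and 0.10. Among the most abundant of them Apoe, a carrier of exported lipid, averaged 119 ± 31.6 CPM in KO (SD, n = 4) and 87.2 ± 34.3 CPM in WT (n = 3).

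Summed levels of sterol synthesis genes overlapped between the genotypes and differed most between single libraries. Summed without Idi2, the other 15 had 956, 1435, 999 and 992 CPM in KO and 685, 1268 and 1255 CPM in WT. The lowest library was WT 1 of the A32x range and the highest KO 2, the only A34x library of this tissue. With both left out the KO libraries (956 to 999) lay below the WT libraries (1255 and 1268). Both were picked by these same sums, which favours that order, so nothing is drawn from it. Gene by gene, WT 1 was the lowest library for 11 of the 15, KO 2 was the highest for 7 and WT 3 for 6. How often these libraries were lowest or highest over all genes was not counted, so these counts are not read as particular to sterol genes. Sqle followed the sum, at 98.9, 202, 99.6 and 99.9 CPM in KO and 73.0, 154 and 152 in WT. Hmgcs1 was lowest in WT 1 too but highest in WT 3, at 236, 285, 245 and 236 CPM in KO and 131, 291 and 305 in WT. In the A32x animals, 1 KO against 1 WT with no test, 14 of the 15 sterol genes were higher in KO, with a median log2 ratio of 0.44 and Hsd17b7 (-0.02) as the exception. The share of all genes higher in KO was not counted for this pair of libraries. In the A38x animals, 2 KO against 2 WT, 13 of the 15 were lower in both KO libraries than in both WT libraries, where 23.3% of all genes tested were, and Lss and Dhcr7 were higher in both, where 23.7% were. The direction of most sterol genes in epidermis thus differed between these sets of libraries, a difference that was not tested. The WT library of the A32x set is WT 1, which stood apart in its mitochondrial ribosomal RNA (44.6%). Its basal keratinocyte markers summed to 3869 CPM against 5493 to 6832 in the other epidermis libraries, and its suprabasal markers to 24409 CPM against 32307 to 54681. The range, the RNA of this library and its keratinocyte markers cannot be told apart here.

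**Figure D4:**
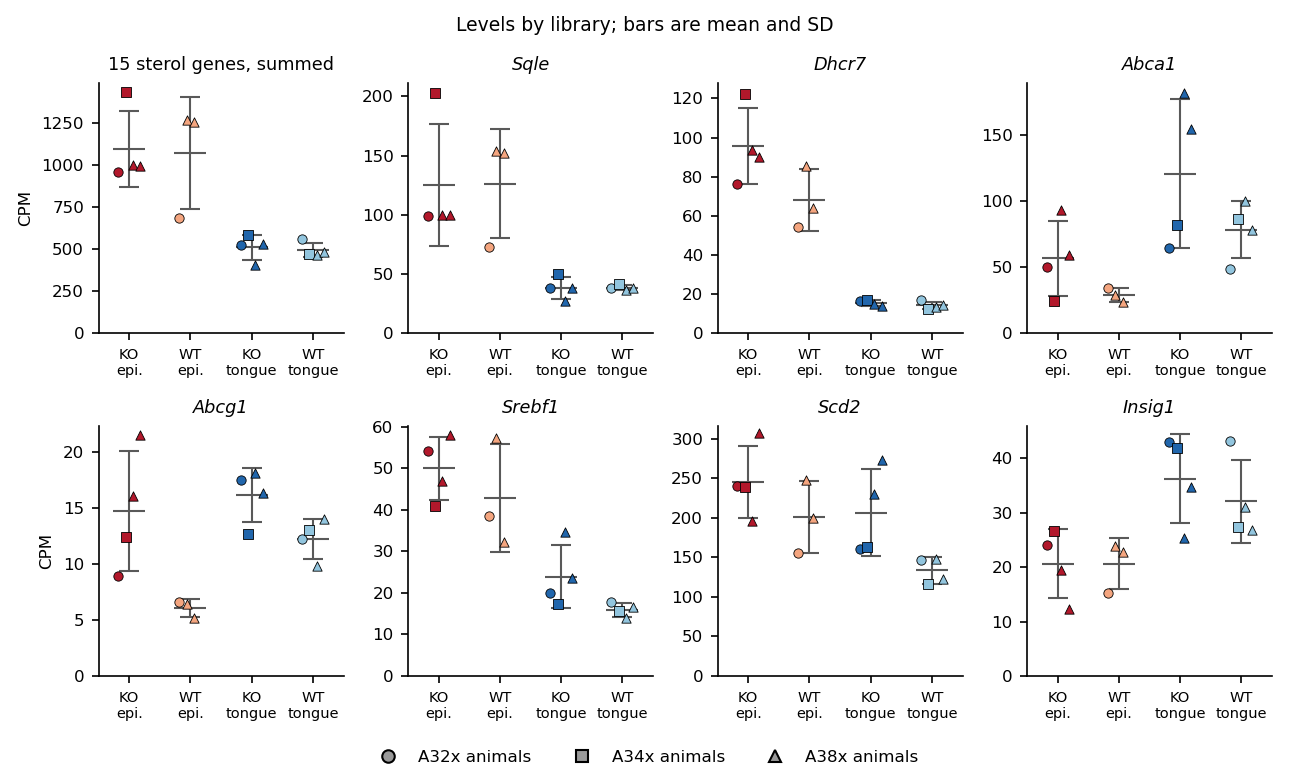
CPM in each library for the sum of 15 sterol synthesis genes and for 7 genes, by group, with marker shape giving the A-number range and bars the mean and SD. In epidermis the sum is 685 in the A32x WT library and 1435 in the A34x KO library, and within the A38x animals it is 999 and 992 in KO and 1268 and 1255 in WT.

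Within the A38x animals alone, edgeR called 604 of 15760 genes between knockout and wild-type epidermis (3.83%, 2.37% higher and 1.46% lower), and 7 of the 31 genes were among them. The exporters rose, Abca1 by 1.52 on the log2 scale (SE 0.22, adjusted p = 0.0042) and Abcg1 by 1.68 (SE 0.22, adjusted p = 0.00062). Abca1 had 93.1 and 58.8 CPM in KO and 28.9 and 23.9 CPM in WT, and Abcg1 16.1 and 21.5 CPM in KO and 6.46 and 5.18 CPM in WT. In the sterol pathway 5 genes fell, namely Fdps (-0.87, adjusted p = 0.046), Fdft1, the squalene synthase (-0.60, adjusted p = 0.035), Sqle (-0.62, adjusted p = 0.020), Cyp51 (-0.56, adjusted p = 0.045) and Nsdhl (-0.74, adjusted p = 0.034). Fdft1 had 61.8 and 57.7 CPM in KO and 90.9 and 89.1 in WT, and Cyp51 85.6 and 76.5 in KO and 112 and 126.5 in WT. Fdps and Nsdhl were read less deeply, Fdps at 5.44 and 4.93 CPM in KO and 10.1 and 8.78 in WT, and Nsdhl at 15.7 and 18.6 in KO and 26.5 and 30.5 in WT. Of the 37-base windows of Fdft1 29.9% and of Fdps 27.5% also occur in other genes, among them Ctsb, which overlaps Fdft1 on the other strand, so their levels are uncertain. The median of the 15 sterol genes was -0.56, against -0.01 over all genes. Idi1 (-0.97, adjusted p = 0.052), Mvd (-0.71, 0.069) and Msmo1 (-0.49, 0.070) did not pass. Srebf1 had 46.8 and 58.0 CPM in KO and 57.3 and 32.3 in WT, and none of the 3 regulators and none of the 10 fatty acid genes passed.

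Among the related lists in these 4 libraries, Npc1, which lets cholesterol leave the lysosome, and Ggps1, which makes geranylgeranyl diphosphate, rose by 0.66 and 0.66 on the log2 scale (adjusted p = 0.034 and 0.049, edgeR), 2 of 14 genes tested. Mylip, an LXR target that marks the LDL receptor for breakdown, rose by 0.90 (adjusted p = 0.022), with 20.5 and 18.7 CPM in KO and 11.6 and 9.19 in WT, and was the 1 of 11 genes called in its list. Of 29 other fatty acid genes Fads6 fell, at 3.99 and 3.64 CPM in KO and 12.3 and 9.70 in WT. Other marker lists moved in the same libraries: all 9 immediate early genes were above 0 and 3 of them rose (Fos, Dusp1 and Zfp36), with list sums of 427 and 654 CPM in KO and 244 and 206 in WT. Of 9 genes of the fasting and PPAR response 2 fell, Angptl4 (log2 change -3.76) and Cpt1a (-0.68). Single genes of 3 more lists were called: Hbb-bs of blood rose (0.91, with all 4 blood genes tested above 0), Mbp of Schwann cells rose (0.63), and Krt16 of the tongue epithelium list fell (-0.78, with 7 of its 8 genes below 0). Suprabasal markers summed to 39960 and 54626 CPM in KO and 48362 and 42052 in WT, and macrophage and Langerhans cell markers to 84.0 and 61.3 in KO and 85.5 and 91.3 in WT, and none of either list was called. The part of these lists in the sterol changes was not tested. With 2 libraries a group and all libraries of 1 A-number range, these calls describe these animals, and with the range as a block over all epidermis libraries 0 of the 31 genes passed, Abca1 (1.20) and Abcg1 (1.29) each at an adjusted p of 0.278.

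**Figure D5:**
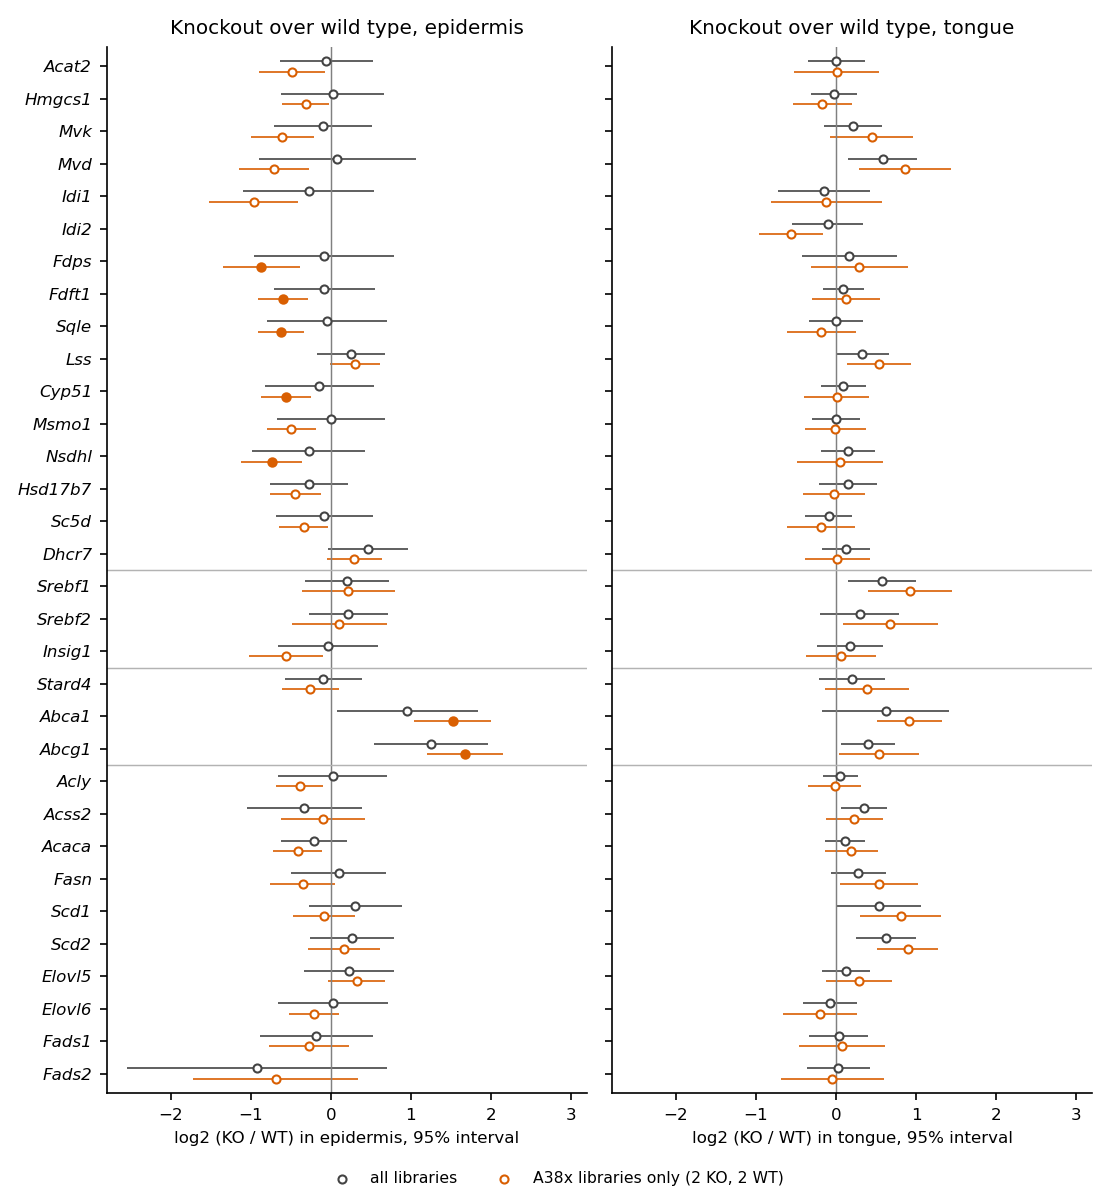
Log2 ratio of KO to WT with 95% intervals in epidermis (left) and tongue (right), with all libraries (grey) and with the A38x libraries only (orange), filled where the adjusted p was under 0.05. In epidermis Abca1 and Abcg1 lie at 1.52 and 1.68 within A38x and at 0.96 and 1.26 with all libraries, and no gene of the 32 passed in tongue.

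In tongue the same comparison called 2 of 15741 genes, both lower in KO (0.0127%), against 496 at an unadjusted p under 0.05 (3.15%). None of the 32 genes passed, and 6 had an unadjusted p under 0.05, all higher in KO. The log2 changes were above 0 for 25 of the 32, as were those of 51.8% of all genes, with a median of 0.14 against 0.01 over all genes. Without KO 3, the library that stood apart, 31 were above 0 and 1 below (median 0.16), and without KO 2 or KO 4, 22 were above and 10 below. Scd2 had 160.3, 163, 230.5 and 273 CPM in KO tongue, against 147, 116, 149 and 122 CPM in WT tongue. It was the only one of the 32 genes whose groups did not overlap, which 0.858% of all genes showed in that direction. Its log2 change was 0.63 (SE 0.17, interval 0.25 to 1.01), with an unadjusted edgeR p of 0.0034 and an adjusted p of 0.939. Its neighbour Scd1 had 36.0, 21.9, 25.1 and 37.9 CPM in KO and 31.5, 15.9, 19.3 and 16.7 in WT, overlapping, with 0.54 (SE 0.24).

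Srebf1, whose product drives fatty acid genes such as these desaturases, had 20.1, 17.3, 34.5 and 23.5 CPM in KO tongue and 17.8, 15.6, 13.9 and 16.6 CPM in WT tongue. KO 2 lay within the WT range and the others above it, and the log2 change was 0.58 (SE 0.20). Without KO 3, its highest library, it was 0.35. Without KO 3 or without KO 4 the change of Scd2 was 0.57 or 0.47. In these A38x knockouts genes of the fasting and PPAR response were low as well, Angptl4 at 3.68 CPM in KO 3 and 2.95 in KO 4 against 19.8 to 60.7 in the other 6 tongue libraries, and Cpt1a at 22.8 and 16.2 against 54.8 to 71.3. The whole list of 9 genes had 3 above 0 and 6 below over all tongue libraries, with none called, and summed to 369 to 731 CPM in KO and 463 to 659 in WT. Its part in the changes of Srebf1, Scd2 and Abca1 was not tested. Along the synthesis routes and in export, 4 more genes, besides Scd1, stood next in order of p. Mvd had 4.92, 6.27, 7.07 and 7.74 CPM in KO and 5.08, 4.12, 3.44 and 4.77 in WT (0.58, SE 0.20), with 3 of the 4 KO libraries above every WT library. Acss2 had 27.8, 37.2, 31.1 and 35.5 CPM in KO and 25.1, 21.0, 28.2 and 28.7 in WT (0.35, SE 0.13). Abcg1 had 17.5, 12.7, 18.1 and 16.3 CPM in KO and 12.3, 13.0, 9.79 and 14.0 in WT (0.40, SE 0.16). Lss, the lanosterol synthase, had 43.5, 33.8, 34.9 and 44.1 CPM in KO and 39.7, 30.1, 25.4 and 29.4 in WT (0.33, SE 0.15). In each of these genes the groups overlapped, and the adjusted edgeR p was 0.939 for all of them, with unadjusted values from 0.012 for Mvd to 0.051 for Lss. Srebf2 (0.29, SE 0.22), Insig1 (0.18, SE 0.19), Idi1 (-0.15, SE 0.26) and Idi2 (-0.10, SE 0.20) did not pass. The interval of Idi2 was -0.55 to 0.34.

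The sterol synthesis genes were measured more tightly in tongue, with a median SE of 0.15, than in epidermis, with 0.29. Sqle had 38.2, 50.2, 27.1 and 38.2 CPM in KO and 38.1, 41.2, 36.5 and 38.1 in WT, with a log2 change of 0.00 and an interval of -0.34 to 0.33, and Hmgcs1 had -0.03 with an interval of -0.32 to 0.26. By range, 5 of the 16 sterol synthesis genes were higher in KO in the A32x animals (median log2 ratio -0.06), 15 of 16 in the A34x animals (0.31) and 8 of 16 in the A38x animals. The share of all genes higher in KO was not counted by range. Within the A38x animals edgeR called 15 of 15975 genes (0.0939%) and none of the 32, with the smallest adjusted p at 0.124 for Scd2 (0.90) and 0.140 for Abca1 (0.92). Abca1 had 181 and 154 CPM in KO and 100.2 and 78.0 in WT of this range, and over all tongue libraries its log2 change was 0.62 (SE 0.35). In the related lists 0 of 14, 0 of 10, 0 of 11 and 0 of 28 genes passed in tongue.

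The difference between the effects in the 2 tissues was tested as an interaction over all 15 libraries. It called 0 of 17935 genes in edgeR (0.0%), against 299 at an unadjusted p under 0.05 (1.67%), and 0 of the 32. Abcg1 was the only one of the 32 under 0.05 unadjusted, with a difference of 0.88 on the log2 scale (SE 0.34). Its unadjusted edgeR p was 0.0195 and its adjusted p 1.0. Acss2 had -0.63 (SE 0.31). The changes of Abca1 in epidermis (0.96) and tongue (0.62), and of Scd2 (0.27 and 0.63), were thus not shown to differ between tissues.

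The balance within the desaturase pair was not told apart between the genotypes. Scd1 made up 21.7 ± 6.14% of the pair per kilobase in KO epidermis (SD, n = 4) and 20.8 ± 1.43% in WT epidermis (n = 3), and 14.3 ± 3.96% in KO tongue and 14.6 ± 3.13% in WT tongue (n = 4 each). The log2 ratio of Scd1 to Scd2 was higher in epidermis than in tongue by 0.72 in KO and 0.63 in WT, each with p = 0.0571 by exact permutation and 0.114 after adjustment. That test does not pair the tissues of an animal, and the ratio was higher in epidermis in 4 of 4 KO animals (by 0.0034 to 1.496) and in 2 of 2 WT animals with both tissues (by 0.84 and 0.91). Between genotypes it differed by 0.03 in epidermis and -0.05 in tongue (exact permutation p = 0.971 and 0.914). Scd1 alone was higher in epidermis in both genotypes, by 1.01 in KO (SE 0.23) and 1.21 in WT (SE 0.27), while Scd2 passed in WT (0.61, SE 0.18) but not in KO (0.28, SE 0.21). The WT call of Scd2 was lost without any one of 3 libraries. The genes share long identical stretches, of which 1 is printed above. Of the windows of Scd1 6.86% and of those of Scd2 5.75% occur elsewhere in the annotation. Scd3 shares windows with both genes and Scd4 with Scd2. Part of each level may thus belong to the other gene or to these relatives.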

How the data were processed

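RNA was read in epidermis and tongue at postnatal day 1. Per the labels' protocols, epidermis was freed from dermis by heating in EDTA (60 °C, 5 min), cDNA came from a SMARTer V4 kit, libraries from a TruSeq v2 kit, and both ends were read for 37 bases. The submitters' processing notes name STAR 2.5.2a, GRCm38.p3 (mm10), DESeq2, edgeR and limma. Counter, strand setting and annotation: not given in the sources used here. Sense and antisense reads therefore cannot be told apart, and 8 of the 32 genes have an antisense partner. For 11 of the 32 genes over 5% of their 37-base windows also occur in other genes. The authors deposited raw counts per Ensembl gene, which were tested. A second deposited table of signal values, each being the count over a library constant (100.0% of values matched), served only for symbols.

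Each comparison was filtered with filterByExpr (minimum count 10), scaled with TMM and tested two-sided by robust quasi-likelihood F tests in edgeR 4.0.16 (R 4.3.3) on the whole table without the 2 transgene entries (at most 0.00439% of reads). P-values were adjusted over all genes tested. Exon lengths came from GENCODE M21, which held 23337 of the IDs. Isoform ratios had 0.5 reads added and were tested by exact permutation. Alternatives were RLE factors, DESeq2 1.42.0, limma-voom 3.58.1, no filter, a minimum count of 30, the A-number range as a block, A38x libraries only, the replicate block and leaving out each library. Same-numbered epidermis libraries of both genotypes carry different A-numbers, so the title numbers were not taken to name shared animals. Their deviations correlated at 0.603 (both A32x), 0.467 (both A38x) and 0.137 (A34x with A38x). Libraries of different numbers were not compared between the genotypes. Tissue comparisons were unpaired, with the animal as a block as an alternative. The fits were tested on simulated counts with known changes. For KO against WT, 8.08% of 2-fold and 60.2% of 4-fold changes were recovered in epidermis, and 65.3% and 93.75% in tongue. In the interaction 12.0% and 75.0% were recovered. Between tissues the shares were 43.0% and 95.0% in KO and 28.0% and 89.0% in WT. A 2-fold change between genotypes in epidermis would thus mostly be missed. P-values reflect only how far these samples vary.

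The 32 genes, 4 related lists and 16 marker lists were chosen with earlier results of these data known. Values per library are given for Srebf1, Srebf2, Insig1, Idi1, Idi2, Scd1 and Scd2, for the 3 sterol and 3 fatty acid genes of smallest p in each knockout comparison and the 4 largest differences a direction between tissues, with up to 3 genes of each related list. Others are named for their place in the pathway or because their call depends on a library, and were picked with their values seen, as were the genes of the A38x comparison.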

Additional observations from a re-analysis of the deposited data

Results flagged for a closer look

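In each group of 4 libraries the highest and the lowest value of each of the 32 genes were compared with the rest by Dixon's test, 96 groups in all, and 5 had a library far from the others. Chance flags about 1 in 20 groups. In KO epidermis library KO 2 was far above the others for Sqle, at 202 CPM where the next was 99.9, for Msmo1, a C4-methyl sterol oxidase, at 165 CPM where the next was 88.7, for Acly, at 319.5 CPM where the next was 219, and for Idi2, at 2.57 CPM where the next was 0.485. KO 2 is the only A34x library of epidermis, so its range has no wild-type library beside it in this tissue. In tongue Hmgcs1 was highest in WT 1, at 179.7 CPM where the next was 155. No difference of these genes between the effects in the 2 tissues passed the interaction test.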

How the results depend on the processing

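Over the other settings 2645 values of single genes kept their side of the threshold. Of these, values not called could change sign by less than 1 SE, and the rest kept their sign. A further 26 newly passed, 17 no longer passed and 16 reversed by 1 SE or more, so smaller sign changes are not among the 16. In the comparison of KO with WT epidermis, the A38x libraries alone gave 2 genes higher and 5 lower where all libraries gave 0 and 0, and reversed Hmgcs1 (-0.31), Mvd (-0.71), Msmo1 (-0.49), Acly (-0.39), Fasn (-0.35) and Scd1 (-0.085), none past the threshold. That setting holds fewer samples and leaves out WT 1 and KO 2. Leaving out single libraries gave 0 and 0 throughout, with Hmgcs1 between -0.28 and 0.23, Acss2 between -0.51 and 0.063 and Fads2 between -1.5 and 0.28, the end that reversed each being the one without WT 1. By the same measure A38x alone reversed Hsd17b7 in tongue (-0.024), and Scd2 in the tissue comparison of KO (-0.031). In the interaction Fads2 ran from -1.43 to 0.29 over single libraries left out, Msmo1 was -0.50 with A38x alone, and the animal block gave Hmgcs1 -0.27, Msmo1 -0.36 and Fads2 0.23. The cause was not tested. The replicate block by title number gave 0 higher and 0 lower in either tissue (tongue libraries of 1 number correlated between -0.107 and 0.543 in their deviations and may share only a number). The animal block gave 24 higher and 7 lower in WT and 19 and 7 in KO between tissues, where single libraries left out gave 18 to 23 and 6 to 8 in WT and 19 to 20 and 6 to 7 in KO. Over all genes the block gave 5526 higher and 5765 lower of 16577 in WT, and 5148 and 5005 of 16398 in KO. In WT the spread under the block rests on the 2 animals with both tissues, so those counts are uncertain. The log2 ratio of Idi1 to Idi2 without single libraries ran from -1.34 to 0.057 (KO against WT epidermis), -0.20 to 0.11 (tongue), 9.68 to 11.08 (tissues, KO) and 10.71 to 11.48 (tissues, WT). That of Scd1 to Scd2 ran from -0.12 to 0.30, -0.26 to 0.12, 0.56 to 0.98 and 0.56 to 0.80 in the same order.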
